A study of Homo sapiens with 4 samples.

Results

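The 31 genes described here encode the enzymes and controllers of cholesterol and fatty acid synthesis, and they were taken by name from the 50868 genes counted in each library. Each name matched 1 row of the count tables. They were measured by RNA-seq in A549, a human lung adenocarcinoma cell line, in 2 control libraries and 2 libraries with overexpressed USP12, a deubiquitinase, which is an enzyme that removes ubiquitin from other proteins. The labels name the groups only as control and USP12-overexpressed. According to the study's methods, tagged human USP12 was placed in a pLVX lentiviral vector. The study's figure legends name its A549 controls as vector controls. Whether the replicates came from separate cultures, and whether either cell population was a clone, is not stated, so the p-values measure only the spread between these samples.

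Cholesterol is built from acetyl-CoA in the cytosol and the endoplasmic reticulum. Acetyl-CoA units are joined and reduced to mevalonate, mevalonate is turned into isoprene units, these are joined to squalene, and squalene is closed and trimmed to cholesterol. Fatty acids start from the same acetyl-CoA, which ATP citrate lyase makes from citrate, and are then carboxylated, elongated and desaturated. The transcription factors SREBF1 and SREBF2 drive both pathways. When sterols are scarce, SCAP escorts them from the endoplasmic reticulum to the Golgi, where they are cut and released to the nucleus, and when sterols are plentiful, INSIG1 holds SCAP back. Lung alveolar type II cells, the cell type A549 is often used to model, make large amounts of lipid for surfactant.

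SREBF proteins bind the sterol regulatory element, here searched on both strands by its core CACNCCAC, where N is any base. The search covered the 250 bases before the RefSeq start of each gene (GRCh38.p14), and 27 of the 31 genes had a promoter in that table. The core was found in 3 of the 27 promoters, against 4.72% of all 27305 promoters and 4.92% of the 15843 protein-coding ones. These are the only members with the core, and all 3 stretches are shown. Capitals mark the core, each run is written 5′ to 3′ along the gene's strand, and the core ends 125 bases before the start in SREBF2, 201 in INSIG1 and 107 in SCD.
SREBF2 (chr22:41832962-41832991, plus strand): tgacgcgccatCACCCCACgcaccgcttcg
INSIG1 (chr7:155297659-155297688, plus strand, core on the opposite strand): gcgggccggcgGTGGCGTGtgcgcacgtca
SCD (chr10:100347108-100347137, plus strand, core on the opposite strand): gcagaggccggGTGGTGTGgtgtcggtgtc
The same windows held CCAAT in 17 of the 27 promoters, against 33% of all promoters and 34.5% of the protein-coding ones. GGGCGG was found in 24 of 27, against 42.3% and 56%. CACGTG was found in 3 of 27, against 6.49% of all promoters. These matches describe letters only.

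The libraries held between 14280081 and 16305356 counts. USP12 itself had 15.2 and 34.4 CPM in control cells and 1745 and 2235 CPM with USP12, where CPM is a count divided by the library size after scaling by edgeR's TMM method. The epithelial markers EPCAM, KRT7, KRT8, KRT18, KRT19 and CDH1 summed to between 6794 and 12896 CPM in every library. The summed levels of 6 fibroblast markers (2.94 to 20.9 CPM), 6 leukocyte markers (54.0 to 113 CPM) and 4 endothelial markers (0.504 to 15.4 CPM) were far lower, and COL1A2, DCN, PTPRC, CD3E, VWF and KDR had at most 3 counts in every library. Other markers of these lists were counted, with 686 to 1044 counts of CD68, 85 to 424 of CD14 and 47 to 262 of COL1A1. Some markers moved with the groups, as CDH5 had 10.3 and 5.32 CPM in control cells against 0.144 and 0.346 CPM with USP12, and the epithelial KRT19 had 436.6 and 114 CPM against 68.7 and 55.9 CPM. Their part in the results was not tested. Exons of 18 of the 31 members overlap another annotated gene, and whether strand was used in counting is not stated, so the counts of these genes are uncertain. In GGPS1, CYP51A1, TM7SF2, EBP, FADS1 and FADS2 the overlap is on the same strand. It is on the opposite strand alone in 12, which are ACAT2, HMGCS1, MVK, IDI1, FDPS, FDFT1, LSS, SREBF1, SREBF2, STARD4, ACLY and ELOVL6. The count column of control replicate 1 is headed by a prefix, in the form of a date, that differs from the prefix shared by the other 3 libraries, and the results are therefore also given against each control library alone.

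Bulk counts cannot tell fewer cells from less RNA per cell. All 31 genes passed the filter on low counts, and no member passed the test between USP12 and control cells. The smallest unadjusted p was 0.112 and the adjusted p ranged from 0.815 to 0.991 (edgeR's quasi-likelihood test, Benjamini-Hochberg over 15222 genes). USP12 itself, with a log2 fold change of 6.32, had an adjusted p of 0.0975 in the same edgeR quasi-likelihood test and was not called either. A missing adjusted call is therefore no evidence of a level gene. USP12 was called by the DESeq2 Wald test (adjusted p = 2.98e-30) and by the edgeR exact test (adjusted p = 6.1e-18). A call at so large a change does not show that changes of the members' size would be found. At an unadjusted p under 0.05 there were 0 of 31, where 7.59% of all genes tested were called, and at an adjusted p under 0.05 there were 0 of 31, against 0% of all genes. The DESeq2 Wald test gave 0 of 31 at an adjusted p and 0 at an unadjusted p under 0.05, against 2.69% and 8.54% of all genes, and the edgeR exact test likewise 0 and 0, against 2.82% and 9.05%. Adjusted calls were also 0 of 31 under the replicate block (2.65% of all genes), with no filter (2.13%), and with either USP12 library left out (0.248% and 0.273%). The study's criterion for lower genes is a p of 0.05 or less with a log2 fold change of -1 or less, and it is mirrored here for higher genes. By this criterion 0 members were called, against 7.33% of all genes.
The point estimates of all 31 members lay within a log2 fold change of 1, as did 12615 of the 15222 genes tested. The members' values lay between -0.93 and 0.69, with a median of -0.21 beside -0.06 over all genes tested. Of the 31 estimates, 19 were below zero and 12 above it. The approximate 95% intervals were wide, with a median standard error (SE) of 0.47 on the log2 scale. The interval stayed under a log2 fold change of 1 in 16 genes and over -1 in 10, and FASN was the single gene whose interval met both limits. In 13 members the USP12 libraries did not overlap the control libraries, 7 lower and 6 higher, against 36.5% of all genes tested, 17% lower and 19.5% higher. With 2 libraries in each group, a permutation test of 1 gene cannot give a p under 0.333.

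**Figure D1:**
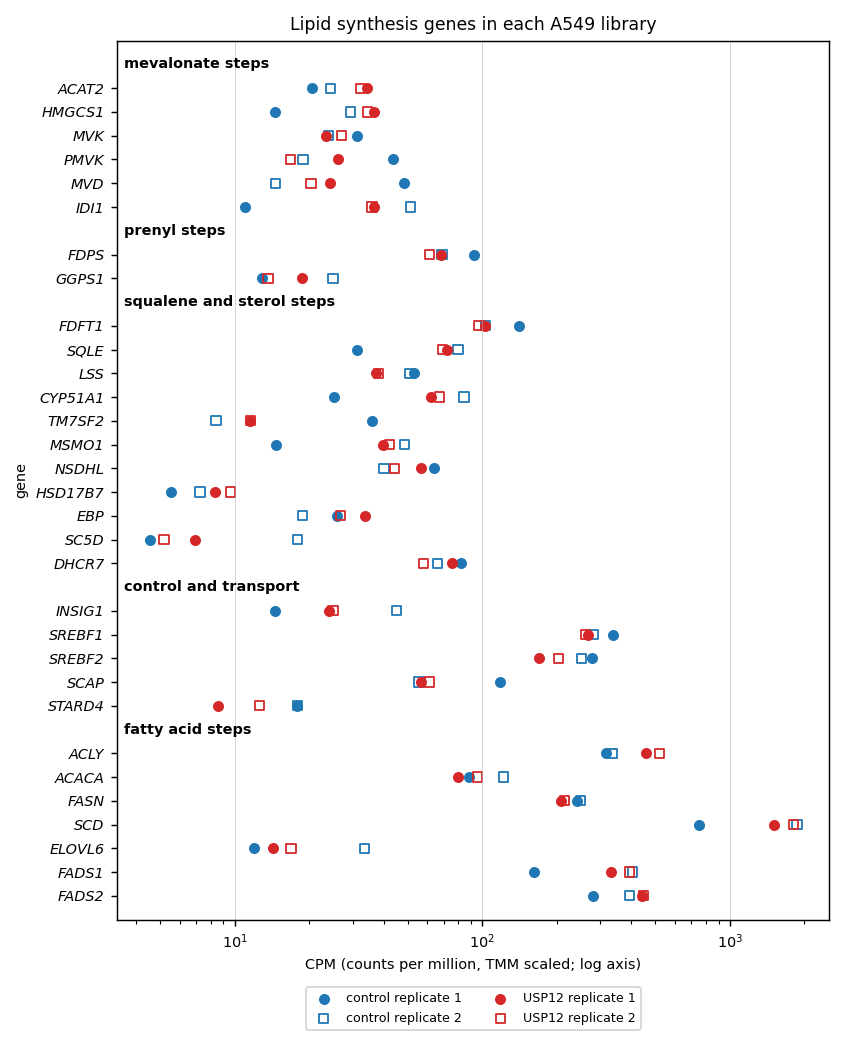
Level of each lipid synthesis gene in each library, in CPM on a log axis, with genes grouped by role. Blue marks the control and red the USP12 libraries, and filled circles are replicate 1 and open squares replicate 2. In genes such as IDI1, CYP51A1 and SCD, control replicate 1 lies well below the USP12 libraries. Control replicate 2 lies above them, at a smaller distance.

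**Figure D2:**
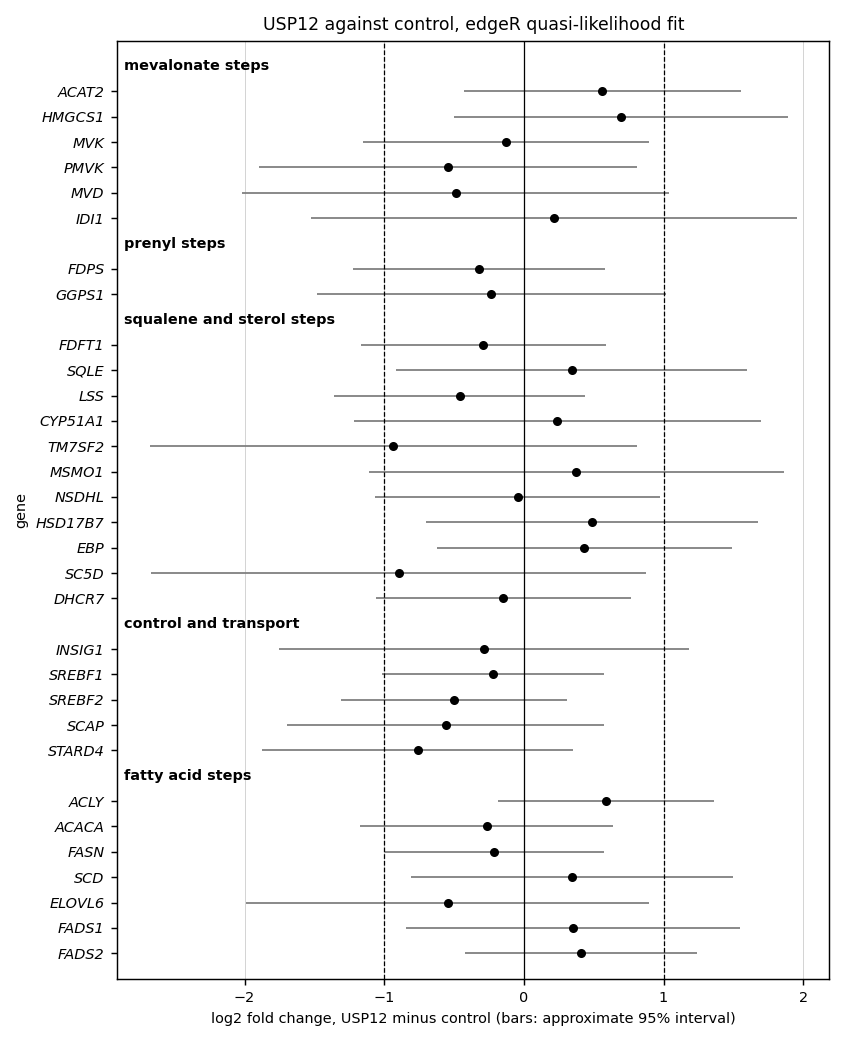
Log2 fold change of each gene, USP12 minus control, from edgeR's quasi-likelihood fit, with approximate 95% intervals. Dashed lines mark log2 fold changes of -1 and 1. All 31 intervals cross zero.

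Of the 6 genes of the mevalonate steps, HMGCS1 and ACAT2 were higher in both USP12 libraries than in both control libraries, as were 19.5% of all genes, and 0 of 6 passed the test. ACAT2 (chromosome 6 of GRCh38, 159762045 to 159779112, plus strand), the thiolase that joins acetyl-CoA units at the start of the pathway, had 20.5 and 24.5 CPM in control cells, and 34.1 and 32.3 CPM with USP12. Its log2 fold change was 0.56 (SE 0.41, adjusted p = 0.889, edgeR quasi-likelihood test). HMGCS1 (chromosome 5, 43287470 to 43313512, minus strand), the HMG-CoA synthase, had 14.5 and 29.4 CPM in control cells, and 36.7 and 34.4 CPM with USP12. That was the highest log2 fold change of the 31 genes, 0.69 (SE 0.49, adjusted p = 0.888, edgeR quasi-likelihood test). The control libraries differed more from each other (-1.01 on the log2 scale, replicate 1 minus replicate 2) than the group means did. Leaving out control replicate 2 gave 1.32, and leaving out control replicate 1 gave 0.28.
The kinases and the decarboxylase of the pathway went the other way in point estimate. PMVK had 43.7 and 18.9 CPM in control cells, and 26.1 and 16.8 CPM with USP12. MVD, which makes isopentenyl diphosphate, had 48.2 and 14.6 CPM against 24.3 and 20.4 CPM. Both were highest in control replicate 1, and their groups overlapped. MVK was nearly level, between 23.4 and 31.3 CPM in the 4 libraries. IDI1 (chromosome 10, 1039152 to 1049119, minus strand), the isomerase that sets the balance of isoprene units, had 11.05 and 51.2 CPM in control cells, and 36.6 and 35.9 CPM with USP12. The USP12 values of IDI1 lay between the control values, and the control libraries differed by -2.20 on the log2 scale, the widest gap below zero among the 31 genes.

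The prenyl steps join isoprene units into longer chains. FDPS (chromosome 1, 155308748 to 155320666, plus strand), the farnesyl diphosphate synthase, had 92.9 and 68.9 CPM in control cells, and 68.1 and 61.3 CPM with USP12. The groups did not overlap, but the log2 fold change of -0.32 (SE 0.37, adjusted p = 0.942, edgeR quasi-likelihood test) was within the spread. GGPS1, which makes the geranylgeranyl chain used to anchor proteins in membranes, ranged from 12.9 to 25.0 CPM with overlapping groups.

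Among the 11 genes of the squalene and sterol steps, 6 had a lower and 5 a higher point estimate, and 4 had groups that did not overlap, a share near the 36.5% of all genes. FDFT1, the squalene synthase, had 141 and 102.9 CPM in control cells, and 102.5 and 97.1 CPM with USP12, so that control replicate 2 was only just above USP12 replicate 1. LSS (chromosome 21, 46188141 to 46228824, minus strand), which closes the sterol ring, had 53.0 and 50.8 CPM against 37.3 and 38.2 CPM. In LSS the replicates of each group were close, and the log2 fold change was -0.46 (SE 0.37, adjusted p = 0.912, edgeR quasi-likelihood test). Without control replicate 1, and likewise without any other single library, it stayed between -0.48 and -0.43.
HSD17B7 and EBP were the sterol genes with both USP12 libraries above both controls. HSD17B7, a sterol ketoreductase, had 5.52 and 7.26 CPM in control cells, and 8.35 and 9.63 CPM with USP12. EBP, the sterol isomerase, had 26.03 and 18.8 CPM against 33.8 and 26.8 CPM, so that USP12 replicate 2 was only just above control replicate 1. Their log2 fold changes were 0.49 and 0.43, with adjusted p of 0.938 and 0.939 (edgeR's quasi-likelihood test).
The other 7 sterol genes overlapped between the groups, and most of them differed between the control libraries. SQLE, the squalene epoxidase, had 31.3 and 79.9 CPM in control cells, and 72.0 and 68.9 CPM with USP12. CYP51A1 (chromosome 7, 92084987 to 92134803, minus strand), the lanosterol demethylase, had 25.3 and 84.5 CPM against 62.3 and 67.4 CPM. MSMO1, the methylsterol oxidase of the next steps, had 14.8 and 48.5 CPM against 39.9 and 42.3 CPM. In SQLE, CYP51A1 and MSMO1, control replicate 1 was the lowest library and control replicate 2 the highest. TM7SF2, a sterol reductase, had the opposite order, with 35.8 and 8.42 CPM in control cells, and 11.5 and 11.6 CPM with USP12, and its log2 fold change of -0.93 (SE 0.72, adjusted p = 0.900, edgeR quasi-likelihood test) was the lowest of the 31 genes. SC5D, the sterol desaturase, had 4.54 and 18.0 CPM against 6.91 and 5.19 CPM, so that control replicate 2 stood apart from the other 3 libraries. NSDHL, a sterol dehydrogenase, and DHCR7, which completes cholesterol, were between 40.2 and 63.9 CPM and between 58.1 and 82.3 CPM.

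In all 5 genes of control and transport the point estimate was lower with USP12 (median log2 fold change -0.50), and 0 of 5 passed the test. The shared direction was not stable, as INSIG1 was at 0.77 without control replicate 2, SCAP at 0.087 without control replicate 1, and SREBF1 at 0.026 with a GC content offset for each library. SREBF2 (chromosome 22, 41833105 to 41907306, plus strand), the factor with the greater part in cholesterol synthesis, had 277 and 251 CPM in control cells, and 170.0 and 204 CPM with USP12. Its log2 fold change was -0.50 (SE 0.33, interval -1.31 to 0.31, adjusted p = 0.872, edgeR quasi-likelihood test). It stayed between -0.63 and -0.36 with each library left out in turn. SREBF1 (chromosome 17, 17810399 to 17837002, minus strand), with the greater part in fatty acid synthesis, had 336 and 280.2 CPM against 268 and 261 CPM. Its log2 fold change of -0.22 (SE 0.33) was within the difference between the control libraries, 0.26.
STARD4 (chromosome 5, 111496033 to 111512590, minus strand), a carrier that moves cholesterol between membranes, had 17.9 and 18.0 CPM in control cells, and 8.57 and 12.6 CPM with USP12. The control values were level here, but the USP12 replicates differed by -0.55 on the log2 scale (replicate 1 minus replicate 2). The log2 fold change was -0.76 (SE 0.46, adjusted p = 0.849, edgeR quasi-likelihood test). It was -0.49 without USP12 replicate 1 and -1.07 without USP12 replicate 2. SCAP (chromosome 3, 47413681 to 47477126, minus strand) had 118 and 55.6 CPM in control cells, and 56.6 and 61.4 CPM with USP12. Control replicate 1 alone was high, and the log2 fold change of SCAP over all libraries was -0.56. INSIG1 (chromosome 7, 155297776 to 155310235, plus strand) had 14.6 and 45.1 CPM in control cells, and 24.0 and 25.0 CPM with USP12. The USP12 values of INSIG1 lay between the controls, with a log2 fold change of -0.29 (SE 0.60).

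Of the 7 genes of the fatty acid steps, 4 had a higher and 3 a lower point estimate, and 0 passed the test. ACLY (chromosome 17, 41866917 to 41930542, minus strand), ATP citrate lyase, had 315 and 335 CPM in control cells, and 458 and 521 CPM with USP12. In ACLY both replicate pairs were close and the groups were well apart. Its log2 fold change of 0.59 (SE 0.32, interval -0.18 to 1.36, unadjusted p = 0.112, adjusted p = 0.815, edgeR quasi-likelihood test) had the smallest p of the 31 genes. Leaving out control replicate 1 gave 0.55, and leaving out control replicate 2 gave 0.66.
The next enzymes did not share that direction. ACACA, acetyl-CoA carboxylase, had 88.8 and 122 CPM in control cells, and 79.6 and 95.4 CPM with USP12. FASN (chromosome 17, 82078338 to 82098294, minus strand), the fatty acid synthase, had 242 and 249 CPM against 209 and 215 CPM. Its log2 fold change was -0.21 (SE 0.32, interval -0.998 to 0.57), so that the groups of FASN did not overlap but lay close together. ELOVL6, an elongase of saturated chains, had 11.96 and 33.5 CPM against 14.3 and 16.9 CPM, with control replicate 2 apart from the other libraries.
The desaturases had some of the highest levels. SCD (chromosome 10, 100347233 to 100364826, plus strand), which makes monounsaturated chains, had 749.6 and 1867 CPM in control cells, and 1510.3 and 1813 CPM with USP12. FADS1 (chromosome 11, 61799627 to 61829318, minus strand), the delta-5 desaturase, had 162 and 405 CPM against 332 and 392 CPM. In both genes control replicate 1 was low and the other 3 libraries were close. FADS2 (chromosome 11, 61792980 to 61867354, plus strand), the delta-6 desaturase, had 281 and 392 CPM in control cells, and 444 and 448 CPM with USP12, a log2 fold change of 0.41 (SE 0.34, adjusted p = 0.916, edgeR quasi-likelihood test). FADS1 and FADS2 lie over each other on opposite strands, and exons of FADS2 overlap FEN1 on its own strand.

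Levels can be compared between genes only per length, here as the mean CPM over the 4 libraries per kilobase of the gene's canonical transcript in GENCODE release 44. SCD was the most abundant member at 283 CPM per kilobase, followed by FADS2 at 127, ACLY at 94.9 and FADS1 at 73.9. SREBF1 came next at 58.4 CPM per kilobase and was above SREBF2 at 43.1 in each of the 4 libraries. FDFT1 at 54.5 and FDPS at 51.4 CPM per kilobase were the highest of the enzymes of the cholesterol branch. SC5D at 1.26, ELOVL6 at 2.91 and STARD4 at 3.08 CPM per kilobase were the lowest. The 31 genes together took 0.311% and 0.535% of all counts in control cells, and 0.419% and 0.483% with USP12. Of these counts, SCD alone held 22.2% in control replicate 1 and between 34.7% and 38.6% in the other 3 libraries.

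The 31 genes varied more between the control libraries than between the USP12 libraries. The log2 difference between control replicates 1 and 2 was over 1 in size in 14 genes, against 43.5% of all genes tested, while that between the USP12 replicates was over 1 in 0 of 31 genes, against 7.90% of all genes. The median size of the difference was 0.67 between the controls and 0.19 between the USP12 replicates, beside 0.88 and 0.24 over all genes. In 10 members, control replicate 1 was below control replicate 2 by a log2 of over 1. These were IDI1, SC5D, CYP51A1, MSMO1, INSIG1, ELOVL6, SQLE, FADS1, SCD and HMGCS1. In 4 members, TM7SF2, MVD, PMVK and SCAP, it was above by over 1. Control replicate 1 was the lowest or the highest of the 4 libraries in 27 of 31 genes, and in 74.9% of all genes tested.
The direction of the comparison with USP12 cells therefore depended on the control library. The USP12 mean lay above one control library and below the other in 17 of 31 genes, and in 50.4% of all genes tested. Against control replicate 1 the median log2 difference of the members was 0.21, with 16 genes higher, and against control replicate 2 it was -0.09, with 13 higher. Without control replicate 2, 13 members had an adjusted p under 0.05 (edgeR's quasi-likelihood test), against 32.2% of all genes. FADS1, MSMO1, CYP51A1, IDI1, ACLY, HMGCS1, SCD, FADS2 and SQLE were higher in USP12 cells in that fit, and MVD, SCAP, TM7SF2 and PMVK were lower. Without control replicate 1, 3 members, ELOVL6, INSIG1 and SC5D, were lower and 0 higher (adjusted p under 0.05 from the same test), against 10.5% of all genes. In both fits the spread comes from the USP12 replicates alone, and the lone control library is assumed to vary like them. The fits shared 0 called members. By the criterion, 2 members were lower and 7 higher without control replicate 2, and 2 lower and 0 higher without control replicate 1, against 28.9% and 16% of all genes, and 0 were called without either USP12 library, against 2.84% and 3.12%. IDI1, for example, was at 1.74 without control replicate 2 and at -0.50 without control replicate 1. In the fits without a USP12 library the spread comes from the control libraries alone, so a missing call there says little.
The USP12 mean had the same sign against each control library in the other 14 genes. The means of HMGCS1, ACAT2, HSD17B7, EBP, ACLY and FADS2 were above both controls. Those of FDPS, FDFT1, LSS, SREBF1, SREBF2, STARD4, ACACA and FASN were below both. In ACACA the mean was level with control replicate 1 (-0.026) and the groups overlapped. The edgeR fit of ACACA without control replicate 2 gave 0.0080. FDFT1 was only just below control replicate 2 (-0.045). The values of STARD4 (-0.78 and -0.78), SREBF2 (-0.58 and -0.43), LSS (-0.49 and -0.43) and ACLY (0.63 and 0.54) were close against either control.

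**Figure D3:**
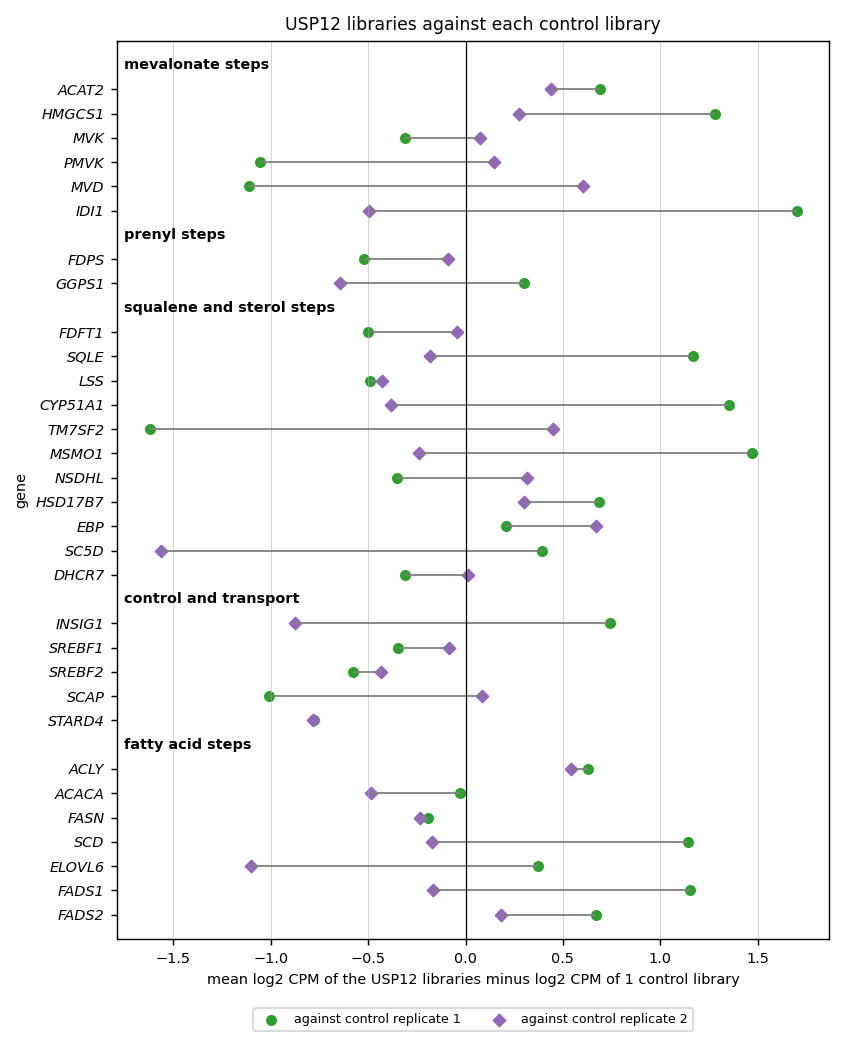
Mean log2 CPM of the USP12 libraries minus the log2 CPM of control replicate 1 (circles) or control replicate 2 (diamonds) for each gene, with a line between the values. The line crosses zero in 17 of 31 genes, and it is short in STARD4, LSS, SREBF2, FASN and ACLY.

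The difference between the control libraries moved with base composition. GC content is here the share of G and C in a gene's canonical transcript. Across the 15094 tested genes with a value, the log2 difference of control replicate 1 minus replicate 2 had a Pearson r of 0.55 and a Spearman rho of 0.60 with GC content, and across the 31 members r was 0.76 and rho 0.73. These correlations are across genes of the same libraries and describe those libraries only. In the lowest quintile of GC content over all genes the median difference was -0.98, and in the highest quintile it was 1.01. The 7 members in the lowest quintile had a median of -1.71, and the 8 in the highest 0.74. IDI1 (37.9% GC), MSMO1 (37.4%), SC5D (36.9%) and CYP51A1 (41.0%) were lower in control replicate 1 than in control replicate 2. MVD (65.5%) and TM7SF2 (62.4%) were higher in control replicate 1. The USP12 replicates showed little of this, with an r of 0.10 across all genes.
In 8 of 31 members the control difference lay over 1 from the trend of all genes at their GC content, against 28.2% of all genes, so the members did not stand out in this. FADS2 (59.0% GC) was 1.31 below the trend on the log2 scale, FADS1 1.27, IDI1 1.22, FASN 1.18, INSIG1 1.11, SQLE 1.01 and SCD 0.98 below it. TM7SF2 was 1.05 above it, and STARD4, the member with the lowest GC content (34.4%), 1.02 above it. In all, 22 members were below the trend and 9 above, where 50.7% of all genes were below. With a GC content offset for each library, an alternative chosen after the data had been seen, the median log2 fold change of the members in USP12 cells was 0.03 in place of -0.21. In that fit HMGCS1 alone had an unadjusted p under 0.05, where 11.1% of all genes did, and 0 of 31 members had an adjusted p under 0.05, against 0.125% of all genes (1.1% with the replicate block as well, again with 0 members). The part of RNA quality or of the date-like prefix in these differences was not tested.

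**Figure D4:**
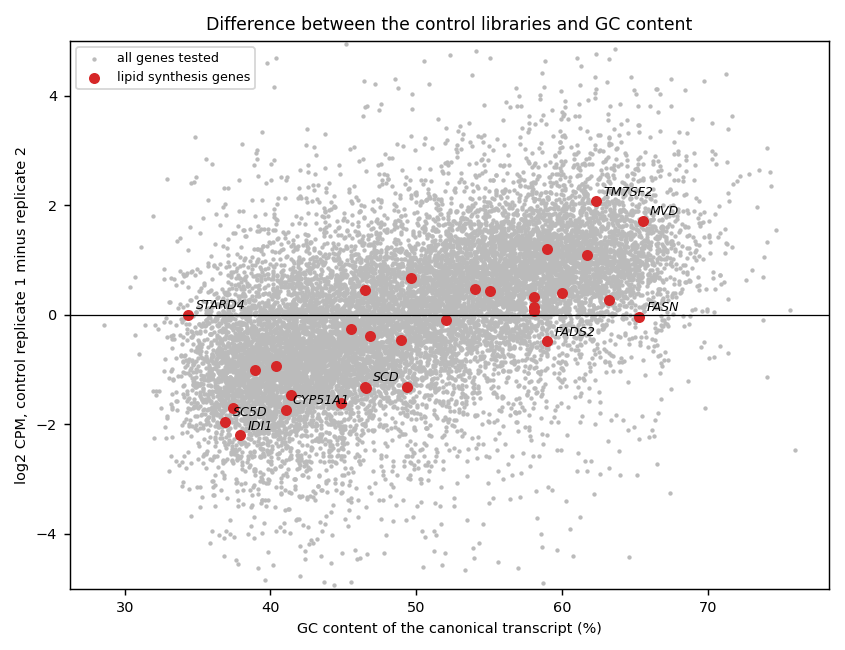
Log2 CPM of control replicate 1 minus control replicate 2 for each gene tested, plotted against the GC content of its canonical transcript in percent. Grey points are all tested genes, with 18 genes beyond the axis limit of 5 left out, and red points are the lipid synthesis genes, which run from IDI1 and SC5D at low GC content to MVD and TM7SF2 at high GC content.

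Other genes of lipid metabolism were read from 5 further lists. Of 12 genes that process or restrain the SREBF factors, 0 met the criterion, and of 13 genes that use isoprenoids and 19 tested genes of fatty acid oxidation, 0 did. Their median log2 fold changes were -0.01, -0.04 and -0.36. Of the 26 tested genes that supply, elongate or use fatty acids, 3 met the criterion as higher and 1 as lower, and of 16 tested genes of sterol storage, transport and efflux 1 was higher and 1 lower, against 2.92% and 4.41% of all genes. Of the 86 genes tested in the 5 lists, 0 had an adjusted p under 0.05 in edgeR's quasi-likelihood test, the DESeq2 Wald test or the edgeR exact test, and 7, 9 and 7 had an unadjusted p under 0.05. These are 8.14%, 10.5% and 8.14% of the 86 genes, near the 7.59%, 8.54% and 9.05% of all genes.
SCD5, another stearoyl-CoA desaturase, had 24.7 and 8.09 CPM in control cells, and 67.4 and 55.6 CPM with USP12, a log2 fold change of 1.91 (SE 0.61, adjusted p = 0.462, edgeR quasi-likelihood test). ELOVL2, an elongase of polyunsaturated chains, had 7.79 and 10.6 CPM against 29.4 and 31.3 CPM, a log2 fold change of 1.72 (SE 0.45, adjusted p = 0.332, same test). ELOVL7 had 3.48 and 8.42 CPM against 19.1 and 15.9 CPM. These 3 genes were higher in both USP12 libraries than in both controls, as were 19.5% of all genes tested. They were named because they met the criterion in these same libraries, so the lack of overlap adds no separate support. With single libraries left out, their log2 fold changes ran from 1.35 to 2.93 in SCD5 and from 1.51 to 1.99 in ELOVL2. In ELOVL7 they ran from 1.06 to 2.36. The highest value of SCD5 came without control replicate 1.
MID1IP1, a small protein that promotes the assembly of acetyl-CoA carboxylase, had 113 and 119 CPM in control cells, and 44.1 and 46.1 CPM with USP12. Its replicates were close in each group, and its log2 fold change was -1.37 (SE 0.35, adjusted p = 0.332, edgeR quasi-likelihood test), between -1.40 and -1.30 with each library left out. NPC2, which carries cholesterol out of lysosomes, had 51.1 and 37.8 CPM against 102.6 and 81.7 CPM. LPCAT3, which inserts polyunsaturated chains into phospholipids, had 295 and 181 CPM against 122 and 103 CPM. In these 3 genes too the groups did not overlap, as in 36.5% of all genes tested, and they too were named by the criterion. The log2 fold changes of NPC2 (1.05) and LPCAT3 (-1.08) had an adjusted p of 0.570 and 0.564 (edgeR quasi-likelihood test). With single libraries left out they ran from 0.88 to 1.29 in NPC2 and from -1.36 to -0.69 in LPCAT3, so that both came inside a log2 of 1.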

How the data were processed

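RNA of 4 libraries, 2 control and 2 USP12, was compared, grouped by their titles. The authors prepared stranded mRNA libraries, filtered ribosomal reads with Seqtk, mapped to GRCh38 with HISAT2 2.0.4 and deposited counts of uniquely mapped fragments per gene from StringTie 1.3.0, without normalization. The annotation release and the strand setting are not given in the sources used here.

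The tool was edgeR 4.0.16 in R 4.3.3 (filterByExpr, TMM, quasi-likelihood test, Benjamini-Hochberg over 15222 genes). A prior count of 2 entered log2 CPM. The SE is the log2 fold change over the root of F, and the 95% intervals use 6.15 degrees of freedom. Both are approximate. The script was tested on simulated data. At these depths 3 counts correspond to between 0.166 and 0.227 CPM, which covers counting error only. Lengths and GC content came from the canonical transcripts of GENCODE release 44, which holds 97.6% of the identifiers, and promoter stretches from RefSeq (GRCh38.p14).

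The members and lists were chosen with earlier results of these data known. The genes named by rule were SREBF1, SREBF2, SCAP, INSIG1, members whose groups did not overlap, and genes of the other lists past the criterion. The per-library values of other members were chosen after seeing them. Alternatives were DESeq2 1.42.0 size factors and Wald test, other filters on low counts, the exact test, the replicate number as a block, a GC content offset, and leaving out each library.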

Additional observations from a re-analysis of the deposited data

How the results depend on the processing

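Of the 31 genes, 0 had an adjusted p under 0.05 with DESeq2's size factors, the DESeq2 Wald test, the edgeR exact test, no filter, at least 10 counts in every library, the replicate block, an offset for GC content, or the last pair together. Their median log2 fold change of -0.21 was -0.15 with the replicate block, 0.025 with the offset and 0.052 with block and offset together. With single libraries left out it ran from -0.22 to 0.25, members lower by the criterion from 0 to 2 and higher from 0 to 7, and members with an adjusted p under 0.05 from 0 to 4 lower and from 0 to 9 higher. The sign reversed with the offset in MVK (0.11), MVD (0.025), DHCR7 (0.031) and SREBF1 (0.026), and with the block and the offset in MVK (0.13), MVD (0.052), DHCR7 (0.037), SREBF1 (0.077) and FASN (0.094). The cause was not tested. The sign of 18 members changed when 1 library was left out, and 11 kept it in all alternatives.

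With single libraries left out, these log2 fold changes crossed zero: MVK from -0.28 to 0.081, PMVK from -0.996 to 0.18, MVD from -1.08 to 0.61, IDI1 from -0.50 to 1.74, GGPS1 from -0.63 to 0.35, SQLE from -0.18 to 1.20, CYP51A1 from -0.38 to 1.39, TM7SF2 from -1.60 to 0.46, MSMO1 from -0.24 to 1.51, NSDHL from -0.31 to 0.33, SC5D from -1.57 to 0.44, DHCR7 from -0.33 to 0.034, INSIG1 from -0.88 to 0.77, SCAP from -0.98 to 0.087, ACACA from -0.48 to 0.0080, SCD from -0.17 to 1.18, ELOVL6 from -1.10 to 0.41, FADS1 from -0.16 to 1.19.

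Over all genes, 671 lower and 445 higher by the criterion became 1173 and 688 without a filter, and from 300.0 to 2134 and from 159 to 2495 with a library left out. The 0 lower and 0 higher genes with an adjusted p under 0.05 became 361 and 167 without a filter, 277 and 133 by DESeq2 Wald, 262 and 167 by the exact test, 251 and 153 under the replicate block, 13 and 6 under the offset, 110.0 and 57 under both, and from 28 to 2612 and from 12 to 2550 with a library left out. Nothing in the labels says that equal replicate numbers mark shared cultures, and the deviations of same-numbered libraries had a correlation of 0.15 across genes. The block changed the call of 0 members. Of the other lists, with all libraries kept, SCD5 became a call (higher) without a filter and under the block. The call under the block was lost once the offset was added. ELOVL3, with 32 counts in control replicate 1 and 0 in the other libraries, was lower without a filter. Further genes of these lists, ELOVL2, MID1IP1 and NPC2 among them, were called when either control library was left out. In those fits the spread comes from the USP12 replicates alone. ELOVL2, ELOVL7, SCD5, MID1IP1, NPC2 and LPCAT3 kept their direction with each library left out. The fits without a control library share the same USP12 libraries, so they are not independent of each other.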
